A study of Gallus gallus with 60 samples.

Results

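Neuropeptide precursors are the genes from which neurons make peptide transmitters, and 9 of them, PENK, NPY, SST, CCK, VIP, TAC1, NTS, ADCYAP1 and CHGB, were followed here in the cerebrum of laying hens. They were read by all probe sets of the array that its annotation gave to these genes, which were 13 of 38535 probe sets and 9 of the 13009 genes with a symbol of their own. PENK, NPY, VIP, TAC1, NTS and CHGB had 1 probe set each, CCK and ADCYAP1 had 2 each, and SST had 3, which the annotation lists as SST1 and which were matched by their gene identifier.

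A neuropeptide is made as a long precursor, which is cut by proteases, often amidated, and stored in dense core vesicles until it is released. It then acts through G protein-coupled receptors, mostly over a slower time than classical transmitters. In the telencephalon many of these genes are transcribed in subsets of inhibitory neurons, and the transcription of several follows cAMP and neuronal activity.

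The study compared white Lohmann Selected Leghorn (LSL) and brown Lohmann Brown (LB) layers, all aged 65 to 67 weeks and kept in a small group housing system. Posterior cerebrum of 28 LSL hens (15 in compartments of 54 hens and 13 in compartments of 36) and of 32 LB hens (17 and 15) was hybridized to 1 Affymetrix chicken array per hen. Tissue was from the right side in 54 hens and from the left in 6 (2 LSL and 4 LB). Both lines are commercial layers without an experimental treatment, and the tier, the compartment and the state of stress of each hen were not analysed here.

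The deposited values are log2 values centred so that the median of every probe set was 0 over hens 1 to 30 (15 LSL and 15 LB) and again over hens 31 to 60 (13 LSL and 17 LB). They give no level of expression, so the order of the genes by abundance and the presence of tissue markers could not be read from them. Every comparison kept these 2 sets of arrays as a block. In LB hens 7, 8 and 16 the centred value of the actin 5' probe set lay far below that of the actin 3' probe set. The balance of 5' to 3' signal was thus lower than on the typical array of the set, which is a sign of shortened RNA or cDNA. The difference 5' minus 3' was between -2.89 and -1.69 log2 units in these 3 hens and between -1.33 and 0.24 in the other 57. All 3 came from compartments of 54 hens, for which the first set held 7 LB hens. In bulk tissue a lower share of the cells that make a peptide and less RNA per cell cannot be told apart.

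Between the lines, PENK was 1.49-fold higher in LSL than in LB hens and CHGB was 1.11-fold lower, whereas the other 11 probe sets did not pass the test. Thus 2 of the 13 probe sets were called at an adjusted p of 0.05 in limma, while 18.3% of all probe sets on the array were called (8.13% higher and 10.2% lower in LSL). The share among the precursors (15.4%) was close to that background.

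PENK encodes proenkephalin, the source of the enkephalins, which are opioid peptides. In hens 1 to 30 its centred log2 values were -0.41 at the lowest, 0.26 at the median and 1.90 at the highest in LSL, against -0.76, -0.21 and 0.84 in LB. In hens 31 to 60 they were -0.40, 0.20 and 2.17 in LSL, against -1.36, -0.31 and 1.91 in LB. The lines overlapped in both sets, but 12 of 15 and 11 of 13 LSL hens lay above the LB median of their set. In hens 1 to 30, 5 LSL hens lay above every LB hen, and 1 did so in hens 31 to 60. The log2 difference LSL minus LB was 0.58 ± 0.18 (SE, 95% interval 0.21 to 0.94, limma adjusted p = 0.0171). Within the first set it was 0.60 and within the second 0.55, where neither passed alone (adjusted p = 0.0782 and 0.238). In compartments of 54 hens the difference was 0.45 ± 0.25 and in those of 36 hens 0.73 ± 0.26 (SE, adjusted p = 0.222 and 0.0737), and 15.5% and 9.07% of all probe sets were called in these comparisons. After quantile normalization between arrays it was 0.51 with an adjusted p of 0.0550.

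CHGB encodes chromogranin B, an acidic protein of the core of dense core vesicles that is itself cut into peptides. Its values in hens 1 to 30 were -0.54 at the lowest, -0.02 at the median and 0.20 at the highest in LSL, against -0.24, 0.00 and 0.52 in LB. In hens 31 to 60 they were -0.75, -0.07 and 0.14 in LSL, against -0.31, 0.05 and 0.43 in LB. The lines overlapped, with 9 of 15 and 10 of 13 LSL hens below the LB median of their set, and 6 LSL hens of the first and 2 of the second set lay below every LB hen. The log2 difference was -0.15 ± 0.06 (SE, 95% interval -0.26 to -0.04, limma adjusted p = 0.0426). It was -0.13 in hens 1 to 30 and -0.18 in hens 31 to 60 (adjusted p = 0.383 and 0.136). Without LB hens 7, 8 and 16 it was still -0.15, but the call was lost (limma adjusted p = 0.0567). The call was also lost on the right side alone (adjusted p = 0.0509), with quantile normalization (0.0579) and with array medians subtracted (0.0574), so it lay near the threshold.

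**Figure D1:**
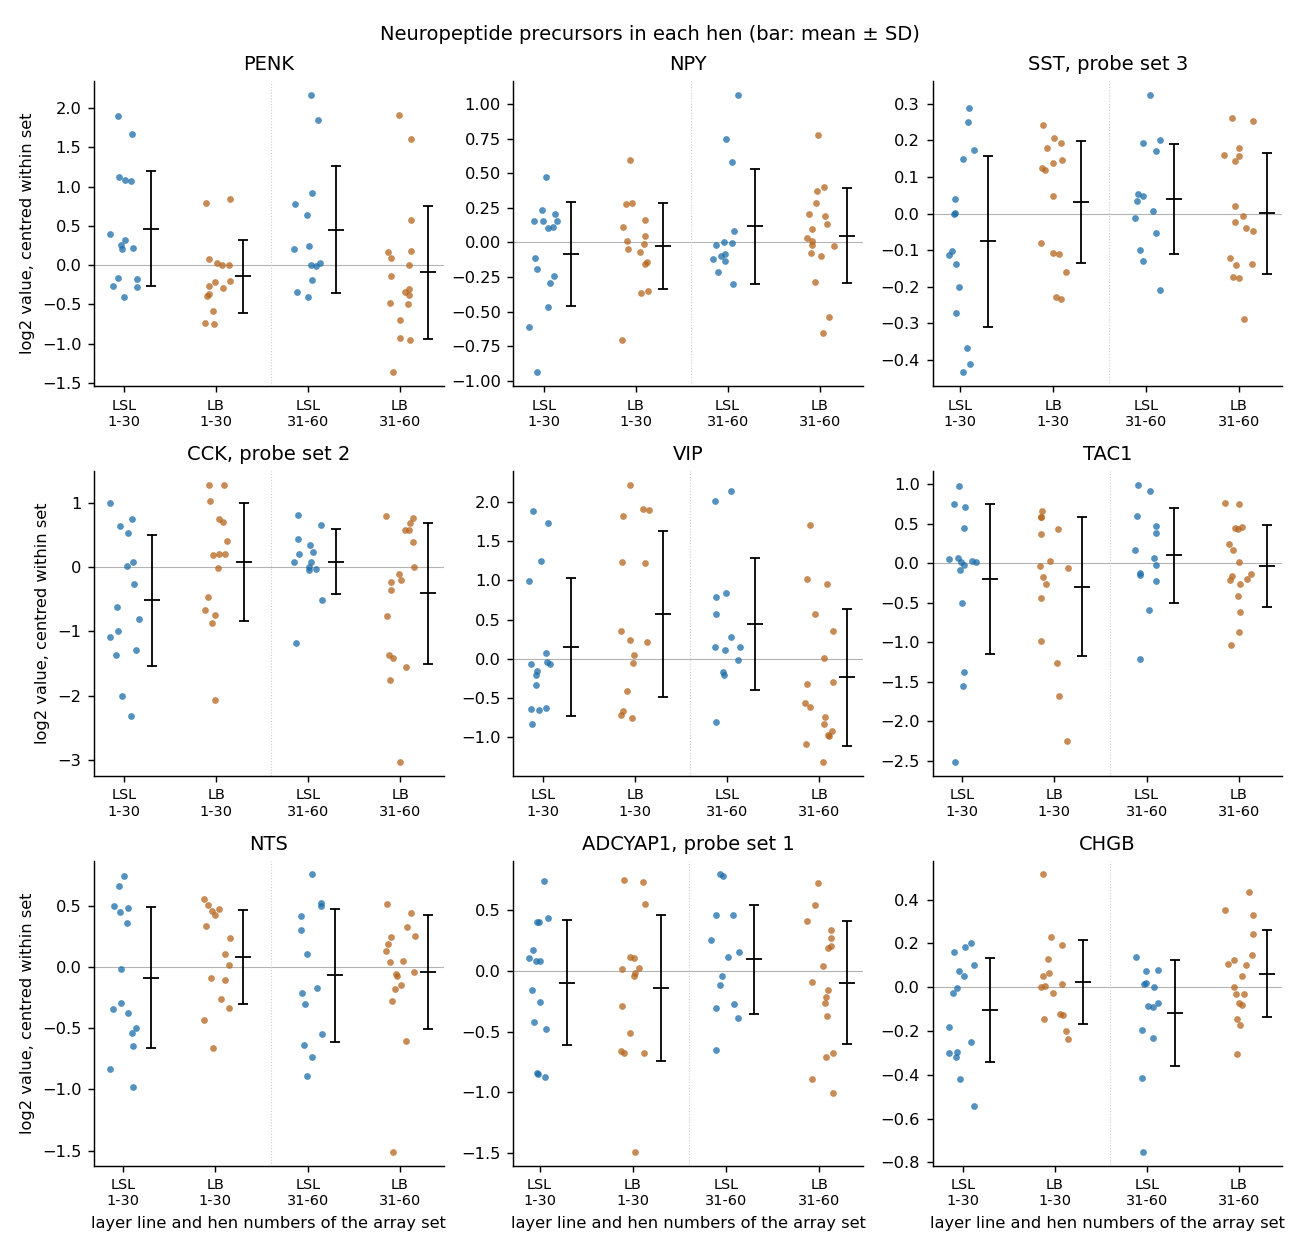
Centred log2 values of the 9 precursors (1 probe set per gene) in every hen, for LSL and LB hens of the set of hens 1 to 30 and of the set of hens 31 to 60, with the mean and SD of each group as a bar. PENK values of LSL hens reached 1.90 and 2.17 and lay mostly above the LB median of their set, and CHGB values of LSL hens extended down to -0.54 and -0.75.

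Among the peptides of inhibitory neurons, NPY (neuropeptide Y, known for its part in feeding) and SST (somatostatin, an inhibitor of hormone release) had small differences between the lines. The log2 difference of NPY was 0.00 (95% interval -0.18 to 0.18), and those of the 3 SST probe sets were -0.01, 0.00 and -0.03, with intervals between -0.13 and 0.08. For NTS, the precursor of neurotensin, the difference was -0.10 (95% interval -0.35 to 0.15), and for TAC1, the precursor of substance P, it was 0.12 (-0.26 to 0.50). The intervals of these genes left out a difference as large as that of PENK in either direction, as did those of ADCYAP1 and CCK, while that of VIP was wider (-0.35 to 0.61).

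ADCYAP1 encodes PACAP, a peptide of the VIP family that raises cAMP. Its probe sets differed by 0.12 (95% interval -0.14 to 0.38) and 0.14 (-0.01 to 0.29). Without LB hens 7, 8 and 16 the second one differed by 0.20 with a limma adjusted p of 0.0300, and was then called. The share of all probe sets called in that fit is not given here.

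For CCK (cholecystokinin, a satiety peptide that is also abundant in the forebrain) and VIP (vasoactive intestinal peptide), the difference between the lines had opposite signs in the 2 sets of arrays. The second CCK probe set was -2.32 at the lowest, -0.62 at the median and 0.995 at the highest in LSL hens of the first set, against -2.07, 0.20 and 1.28 in LB. In the second set it was -1.18, 0.07 and 0.81 in LSL, against -3.03, -0.20 and 0.80 in LB. The means differed by -0.59 in hens 1 to 30 and by 0.49 in hens 31 to 60, and those of the first CCK probe set by -0.49 and 0.19. VIP had a median of -0.07 in LSL and 0.25 in LB hens of the first set, and of 0.15 in LSL and -0.56 in LB hens of the second set. Its means differed by -0.42 and 0.69. The test of this change between sets had unadjusted p-values of 0.0361 and 0.0233 for the CCK probe sets and 0.0195 for VIP in limma, and an adjusted p of 0.717 for each. No probe set of the array was called for it (0%), and 6.89% of all probe sets had an unadjusted p under 0.05. Over both sets the difference was -0.16 and -0.06 for CCK and 0.13 for VIP.

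The group size was compared next, since hens had been housed in compartments of 54 or 36 birds. None of the 13 probe sets was called in the comparison of 54 with 36 hens over both lines, where 0.0104% of all probe sets passed in limma. The log2 differences, 54 minus 36 hens, lay between -0.29 (CCK) and 0.13 (ADCYAP1), and none had an unadjusted p under 0.05. Within LSL 0 of 13 were called (background 0.00519%), and the PENK difference of -0.40 ± 0.26 (SE, adjusted p = 0.536) was the largest in size. Within LB also 0 of 13 were called (background 0.00519%), with unadjusted limma p-values under 0.05 for 2 of 13, a share close to the 11.8% of all probe sets.

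These 2 were probe sets of CCK and ADCYAP1. The first CCK probe set had values from -1.43 through a median of -0.11 to 0.85 in LB hens of the 54 group, against -0.49, 0.25 and 1.26 in the 36 group. It differed by -0.49 ± 0.22 (SE, limma p = 0.0311, adjusted p = 0.372), and the second by -0.58 ± 0.33. The second ADCYAP1 probe set had -0.57, 0.06 and 0.72 in the 54 group, against -0.65, -0.21 and 0.34 in the 36 group. It was 0.21 ± 0.10 higher (SE, limma p = 0.0408, adjusted p = 0.396), and the first differed by 0.34 ± 0.18. Within LB hens 1 to 30 the means of the second probe set were 0.18 in the 54 group and -0.21 in the 36 group. Within LB hens 31 to 60 they were -0.07 and -0.14. LB hens 7, 8 and 16, with the low actin 5' signal, were all in the 54 group of hens 1 to 30. In a fit without them, added after seeing the data, the CCK and ADCYAP1 differences within LB kept their signs and were not called. The groups overlapped over most of their range in each case. The interaction of line and group size was not called for any of the 13 probe sets, nor for any on the array (0%, limma), although 12.9% of all had an unadjusted p under 0.05. The side of the cerebrum gave 0 calls among the 13 and 0% among all probe sets, with 4.47% of all and none of the 13 at an unadjusted p under 0.05.

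**Figure D2:**
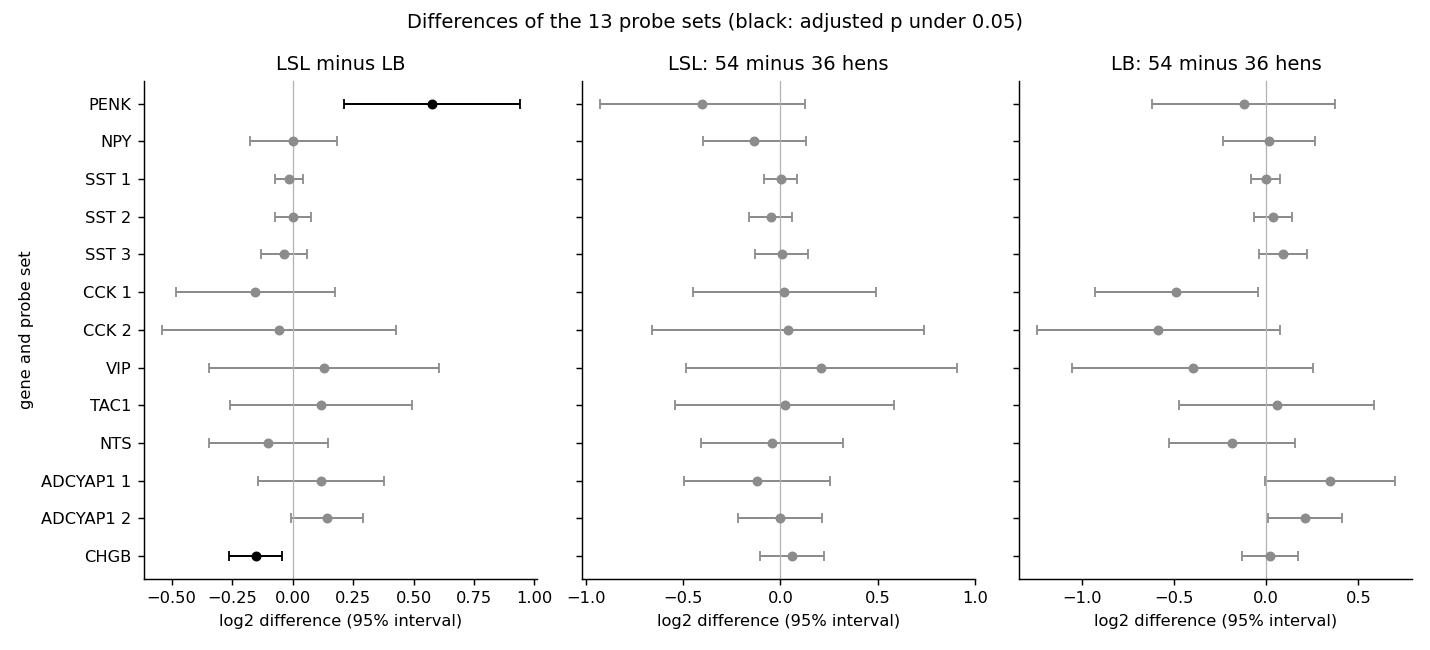
Log2 differences with 95% intervals of the 13 probe sets, LSL minus LB over all hens and 54 minus 36 hens per compartment within LSL and within LB. PENK (0.58) and CHGB (-0.15) passed the test between the lines and are drawn black, and no probe set passed for the group size.

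What marked most of these genes was how far they varied between hens of the same line, group size and set. The residual SD of a probe set, computed after these group means were removed, was 0.15 at the median of the array. VIP had a residual SD of 0.94 and CCK of 0.93 and 0.63, and more than 99% of all probe sets varied less than each of these. TAC1 (0.79) and PENK (0.74) also lay above the 99% mark. ADCYAP1 had 0.52 and 0.29, NTS 0.50, NPY 0.37 and CHGB 0.22. SST varied least, with 0.18, 0.14 and 0.11, of which the last was exceeded by most probe sets of the array (13.95% varied less). The spread around the median of line and set, with group size not removed, was then compared between LSL and LB. After adjustment 0 of 13 probe sets differed (permutation of the line label within set). NTS came nearest, with an SD of 0.56 in LSL and 0.43 in LB (permutation p = 0.0359, adjusted p = 0.467).

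The probe sets of 1 gene varied together for CCK and ADCYAP1, but only in part for SST. The pair of CCK probe sets had Pearson's r of 0.97 in both lines, and that of ADCYAP1 0.95 in LSL and 0.94 in LB. Probe sets 1 and 3 of SST correlated at 0.90 in LSL and 0.73 in LB, but probe set 2 had r of at most 0.16 with either and did not follow them. For the covariation below, each gene was read by the probe set with the largest residual SD.

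Covariation between hens was then computed for all 36 pairs of genes within each line, after removal of the means of array set and group size. In LSL, 4 pairs passed an adjusted permutation p of 0.05 and in LB 7 pairs, with p-values adjusted over the 72 pairs of both lines. As a background, a size of r of at least 0.5 was reached by 6 of 36 pairs (16.7%) in LSL, against 3.50% of all pairings of the 9 genes with other probe sets of the array. In LB it was reached by 4 of 36 pairs (11.1%), against 2.09%. Among probe sets that varied at least as much as SST (residual SD) the background was 5.75% in LSL and 3.67% in LB, where correlations are larger. An r of at least the size of the smallest one called, 0.55 in LSL and 0.47 in LB, was found in 1.92% and 2.93% of all such pairings, and in 3.46% and 4.80% of those with the variable probe sets. The limit set by SST was low for most members. VIP, CCK, TAC1, PENK, ADCYAP1 and NTS each varied more than 98% of all probe sets. A background of the same spread as these genes was not computed.

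**Figure D3:**
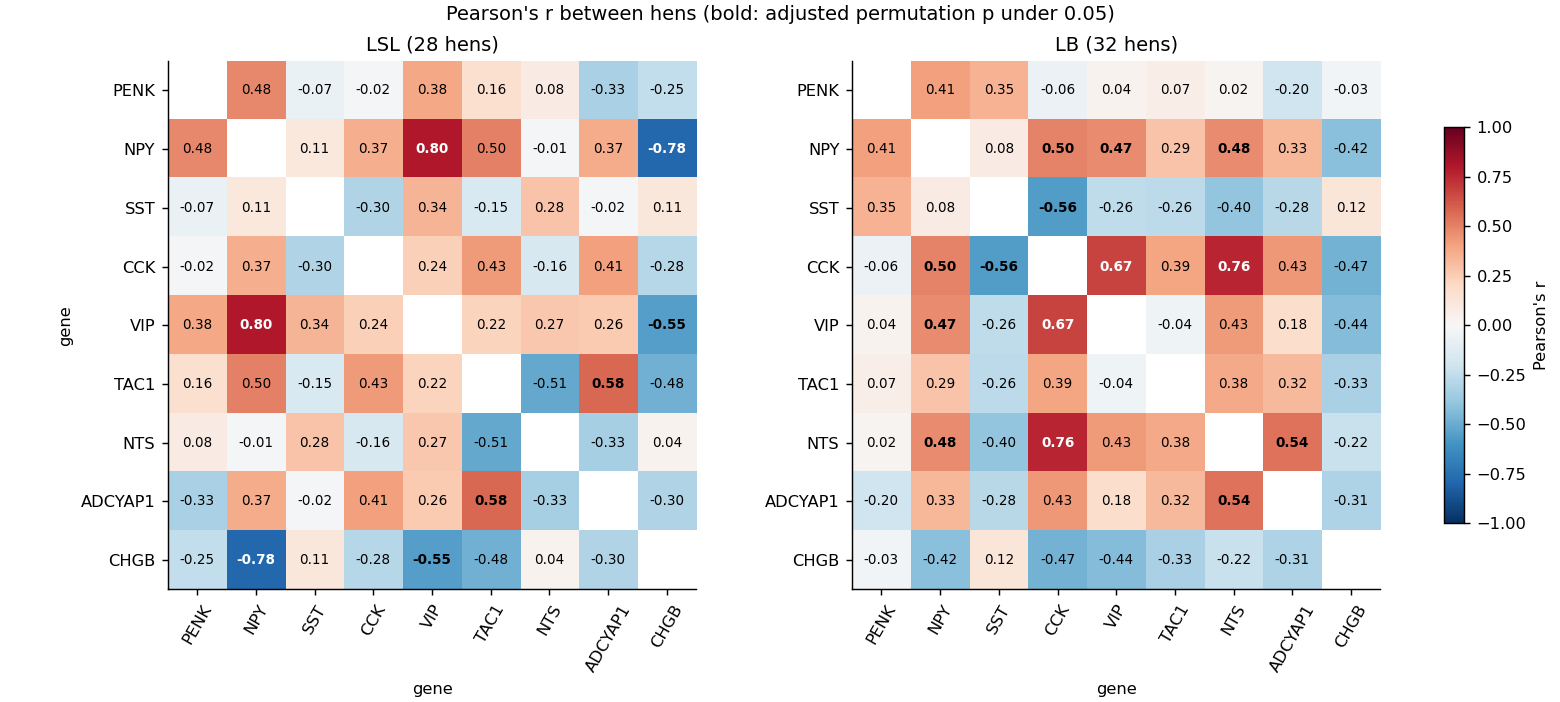
Pearson's r between hens for every pair of the 9 precursors within 28 LSL and within 32 LB hens, with the means of array set and group size removed and pairs past the adjusted permutation test in bold. NPY with VIP (0.80) and NPY with CHGB (-0.78) stood out in LSL, and CCK with NTS (0.76) and CCK with VIP (0.67) in LB.

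In LSL the 2 strongest relations were those of NPY with VIP and with CHGB. NPY and VIP had Pearson's r of 0.80 and Spearman's rho of 0.74 (28 hens, permutation p = 2e-05, adjusted p = 0.00048). The value of r was 0.75 without the 2 hens farthest from the median of NPY, 0.77 within hens 1 to 30 and 0.84 within hens 31 to 60. NPY and CHGB were inversely related, with r of -0.78 and rho of -0.71 (permutation p = 1e-05, the smallest the draws can give, adjusted p = 0.00048). Without the 2 farthest hens r was -0.69, and it was -0.71 and -0.86 within the sets. VIP and CHGB had r of -0.55 and rho of -0.57 (permutation adjusted p = 0.0384), with -0.58 without the 2 hens farthest in VIP. LSL hens with high NPY thus tended to have high VIP and low CHGB. The signs were the same in LB, where r was 0.47 for NPY with VIP and -0.42 for NPY with CHGB. For VIP with CHGB it was -0.44. The pairs with CHGB did not pass in LB (permutation adjusted p = 0.115 and 0.0716). Nor was a difference between the lines called for them (adjusted permutation p = 0.231 and 0.898).

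The fourth relation in LSL was that of TAC1 with ADCYAP1 at r of 0.58 (permutation adjusted p = 0.0270). It rested in part on 2 hens, for r was 0.42 without those farthest in TAC1, and rho was 0.40 (adjusted p = 0.155). Within hens 1 to 30 it was 0.69 and within hens 31 to 60 0.34.

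In LB, CCK was the gene with the most relations. CCK and NTS had r of 0.76 and rho of 0.65 (32 hens, permutation p = 2e-05, adjusted p = 0.00048), and r of 0.64 without the 2 hens farthest in CCK. Within the sets r was 0.72 and 0.79. CCK and VIP had r of 0.67 and rho of 0.68 (permutation adjusted p = 0.00108), with 0.66 without the 2 farthest hens, 0.55 in the first set and 0.80 in the second. SST and CCK were inversely related (r = -0.56, rho = -0.57, permutation adjusted p = 0.0177), with -0.48 without the 2 hens farthest in SST and -0.51 and -0.60 within the sets. NTS and ADCYAP1 had r of 0.54 and rho of 0.58 (permutation adjusted p = 0.0311), 0.50 without the 2 farthest hens, and 0.63 and 0.48 within the sets.

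NPY in LB was related to CCK (r = 0.50), VIP (0.47) and NTS (0.48), with permutation adjusted p-values of 0.0384, 0.0384 and 0.0435. With Spearman's rho none of these 3 passed (0.29, 0.40 and 0.36, adjusted permutation p = 0.301, 0.134 and 0.200). Without the 2 hens farthest in NPY, r fell to 0.22 with CCK and to 0.18 with NTS, so both relations rested on those hens. For VIP it was 0.40. PENK had no relation past the threshold with Pearson's r in either line, and its largest r was that with NPY (0.48 in LSL and 0.41 in LB). With Spearman's rho 6 pairs passed in LSL, among them PENK with VIP (rho = 0.56, r = 0.38, adjusted permutation p of rho = 0.0226), NPY with TAC1 (rho = 0.56, 0.0199) and TAC1 with CHGB (rho = -0.61, 0.0179), while TAC1 with ADCYAP1 did not pass (rho = 0.40, 0.155).

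**Figure D4:**
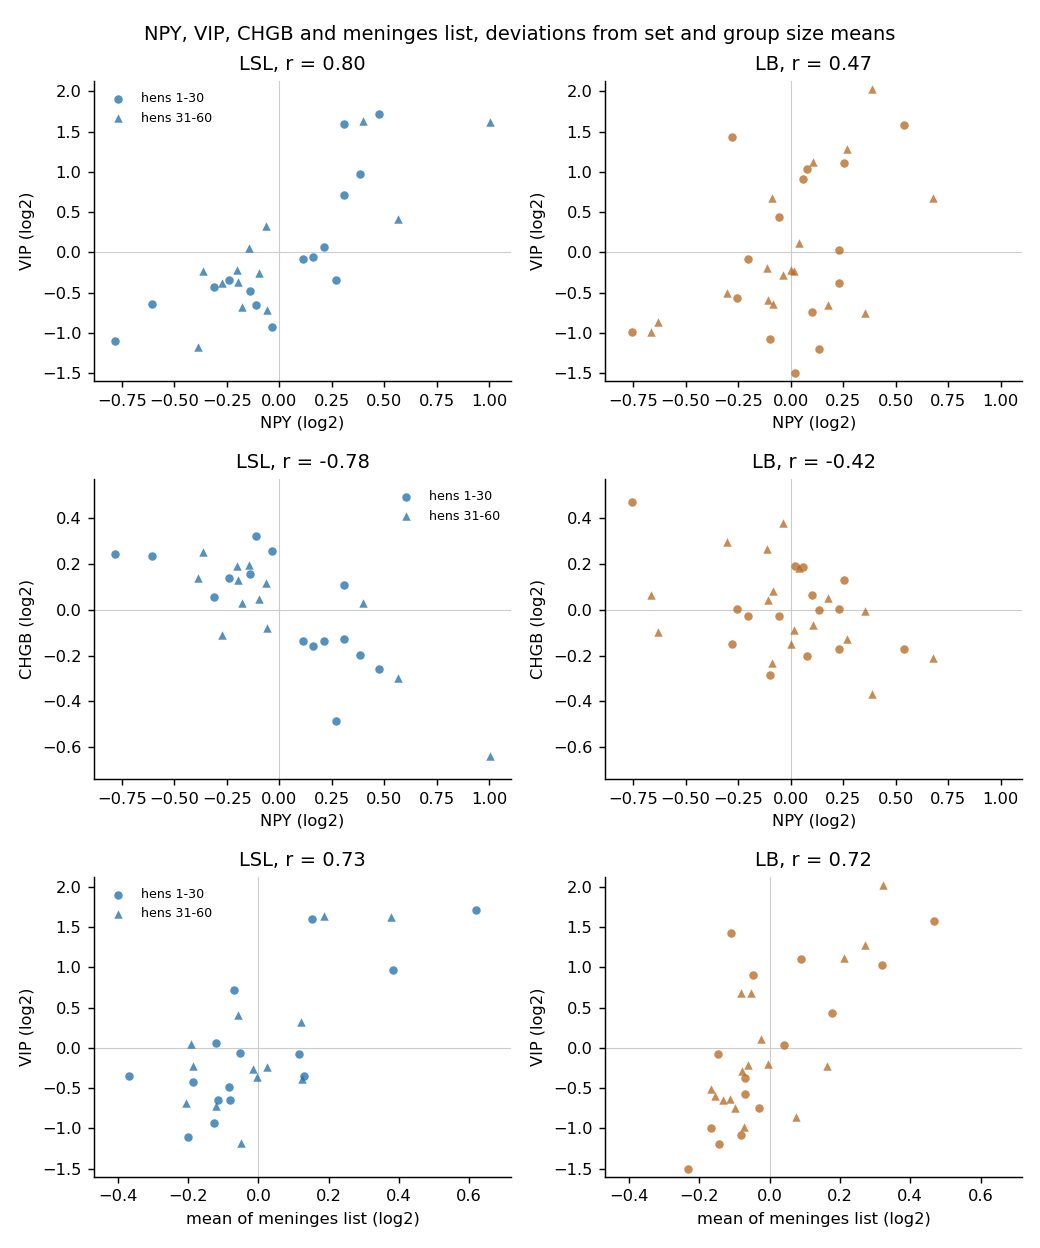
Deviations of VIP and CHGB against those of NPY, and of VIP against the mean of the meninges list, each in log2 units from the mean of the hen's array set and group size, for LSL and LB hens, with circles for hens 1 to 30 and triangles for hens 31 to 60. For NPY with VIP r was 0.80 in LSL and 0.47 in LB, a difference that did not pass the test. VIP followed the meninges list in both lines (0.73 in LSL and 0.72 in LB).

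Whether a relation differed between the lines was tested for all 36 pairs on Fisher's z, with hens permuted between lines within array set and group size. For 3 pairs the difference passed, and all 3 involved NTS. A difference of z at least as large as the smallest of these was found for 0.360% of all pairs of a member with another probe set, for 0.433% of those of NTS, and for 0.794% of those of NTS with a probe set that varied at least as much as the least variable member. NTS had r of at least 0.5 in size with 0.750% of all probe sets in LSL and with 3.95% in LB. CCK with NTS had r of -0.16 in LSL and 0.76 in LB (permutation adjusted p = 0.0157). NTS with ADCYAP1 had r of -0.33 in LSL and 0.54 in LB (permutation adjusted p = 0.0157). TAC1 with NTS had r of -0.51 in LSL and 0.38 in LB (permutation adjusted p = 0.0478). Taken alone, none of the 3 relations passed in LSL (permutation adjusted p = 0.587, 0.219 and 0.0538), and that of TAC1 with NTS did not pass in LB (0.115). Each sign was found in both sets of arrays. In LSL, hens 1 to 30 and 31 to 60 had r of -0.21 and -0.06 for CCK, -0.37 and -0.27 for ADCYAP1, and -0.52 and -0.52 for TAC1. In LB they had 0.72 and 0.79, 0.63 and 0.48, and 0.40 and 0.42. Without LB hens 7, 8 and 16 all 3 differences passed (adjusted p = 0.0188, 0.0164 and 0.0164), and with Spearman's rho only that of NTS with ADCYAP1 did (adjusted permutation p = 0.0216). For NPY with VIP the difference between the lines had a permutation p of 0.0207 and an adjusted p of 0.162, so that a difference was not shown.

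**Figure D5:**
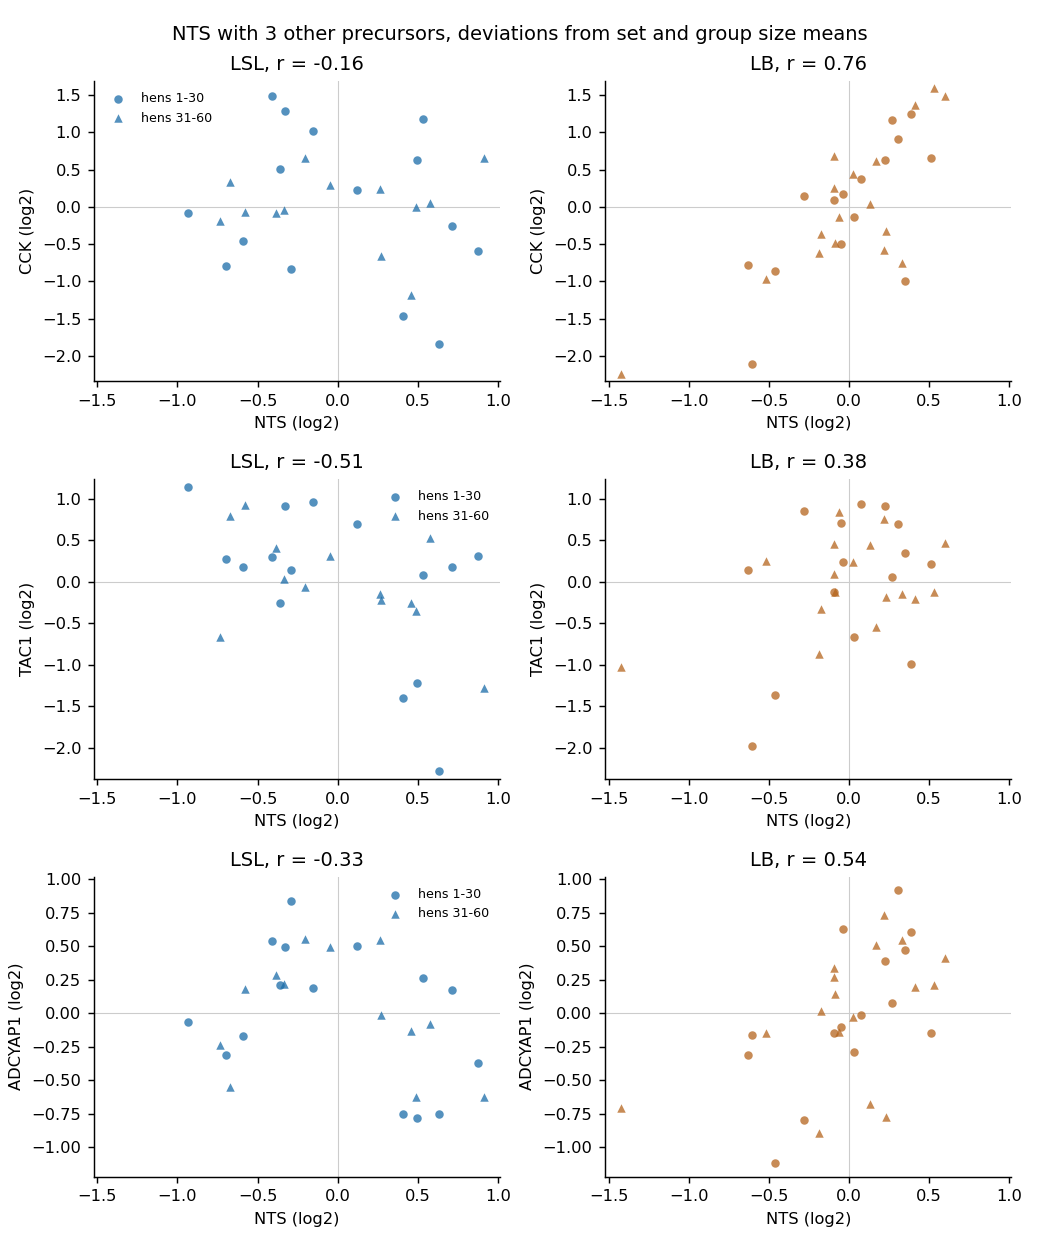
Deviations of CCK, TAC1 and ADCYAP1 against those of NTS in LSL and in LB hens, in log2 units from the mean of the hen's array set and group size, with circles for hens 1 to 30 and triangles for hens 31 to 60. Pearson's r was -0.16, -0.51 and -0.33 in LSL, none past the test, and 0.76, 0.38 and 0.54 in LB, of which that with TAC1 was not past it.

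Markers of other cells moved with some of these genes. The tissue was dissected without meninges, and whether any were present could not be read from centred values. The meninges list held 21 probe sets of 7 genes (DCN, COL1A1, COL1A2, COL3A1, LUM, PTGDS and ALDH1A2). Of these, 8 in LSL and 6 in LB had r of at least 0.5 with VIP, led by DCN (0.75 in LSL) and COL1A2 (0.79 in LB). Over all probe sets this share was 2.98% in LSL and 1.19% in LB. With NPY 8 of the 21 reached it in LSL and 0 in LB, against 2.78% and 0.706% of all probe sets. With CHGB 7 were at -0.5 or below in LSL and 0 in LB, against 1.34% and 0.423% of all probe sets. Of the 7 genes only DCN was called between the lines by any of its probe sets (0.36 higher in LSL, limma adjusted p = 0.0343). This was 14.3%, against 32.4% of all genes. The mean of 7 astrocyte genes had r of 0.53 in LSL and 0.06 in LB with VIP, and of -0.51 and -0.14 with CHGB. The mean of the meninges list ranged from -0.29 to 0.69 in LSL and from -0.21 to 0.45 in LB. With that mean regressed out, which was added after the data had been seen, r in LSL was 0.65 for NPY with VIP, -0.65 for NPY with CHGB and -0.19 for VIP with CHGB. For TAC1 with ADCYAP1 in LSL it was 0.47. In LB it was 0.62 for CCK with VIP, 0.74 for CCK with NTS, -0.57 for SST with CCK and 0.50 for NTS with ADCYAP1. For NPY in LB it was 0.41 with CCK, 0.29 with VIP and 0.42 with NTS.

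PENK moved with markers of GABA neurons, of which 5 of 21 probe sets had r of at least 0.5 in both lines. Over all probe sets this share was 2.51% in LSL and 0.389% in LB. The highest r was that of GAD2, an enzyme of GABA synthesis (0.74 in LSL and 0.60 in LB). The mean of the GABA list had r of 0.70 in LSL and 0.35 in LB with PENK. The GAD2 probe sets differed between the lines by -0.01 and 0.01. Of the 11 genes of the GABA list 2 were higher and 2 lower in LSL, counted by any probe set past the test. CALB2 was higher by 0.28 in 1 of 2 probe sets and CALB1 by 0.20 in 1 of 3, whose others had -0.15 and -0.01. PVALB was lower by 0.40 and 0.22 in both of its probe sets and DLX1 by 0.14 in 1 of 3. This share (36.4%) was close to the 32.4% of all genes called by the same count. The mean of 10 striatal genes other than PENK and TAC1 had r of 0.30 in LSL and 0.46 in LB with PENK. Of 11 probe sets of oligodendrocyte genes, 0 in LSL and 5 in LB had r of at least 0.5 with SST, against 1.91% and 0.612% of all probe sets. With NTS, 0 in LSL and 4 in LB had r of -0.5 or below, against 0.472% and 1.78% of all probe sets. The mean of that list had r of 0.54 in LSL and 0.20 in LB with PENK, and of 0.09 and -0.58 with TAC1. It had -0.32 and -0.46 with CCK, 0.05 and -0.56 with NTS, and -0.06 and 0.56 with SST. It ranged from -0.18 to 0.59 in LSL and from -0.34 to 0.32 in LB. Of its 7 genes 2 were higher in LSL (28.6%), against 15.3% of all genes higher and 32.4% called in either direction. The mean of 14 probe sets of 11 hypothalamic genes had r of 0.79 in LSL and 0.68 in LB with CCK, and of 0.34 and 0.54 with NPY. It ranged from -0.23 to 0.19 in LSL and from -0.23 to 0.36 in LB. Of the 14, 3 in LSL and 1 in LB had r of at least 0.5 with CCK, led by AVP, against 2.08% and 1.59% of all probe sets. Without AVP the mean of the list had r of 0.41 and 0.18 with CCK. The part of these other cells in the relations was not tested beyond the regression on the meninges list.

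For each precursor the 3 genes with the most similar pattern over the 60 hens are given as a description, with the means of line, group size and set removed. CCK had the closest partners, RSPO3, an R-spondin of the Wnt pathway (r = 0.94), AVP, the precursor of vasotocin in birds (0.92), and DRD5, a dopamine receptor (0.87). AVP followed CCK at 0.91 in LSL and 0.93 in LB. VIP was nearest to ATOH8 (0.82) and PRRX1 (0.80), which are transcription factors, and to CPLX3 (0.79), a complexin of the synaptic vesicle. PENK was nearest to CBLN3, a cerebellin (0.80), PTPDC1 (0.77) and SOSTDC1, an inhibitor of BMP and Wnt signals (0.77). None of these 3 passed the test between the lines (log2 differences of 0.10 ± 0.14, 0.21 ± 0.12 and 0.07 ± 0.13, SE). DOC2B, a less close partner of PENK (r = 0.73), was called, higher in LSL by 0.18 ± 0.07 (SE, limma adjusted p = 0.0411).

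CHGB was nearest to ASXL3 (0.82), KCTD4 (0.75) and CMSS1 (0.74), and CMSS1 was also lower in LSL (-0.31, limma adjusted p = 0.00589). TAC1 followed CPNE8 (0.79), FIGN and DACT2 (0.75 each). NPY followed KCNK2, a potassium channel (0.76), TENM4 and RAB8A (0.70 each). ADCYAP1 followed FLRT3 (0.68), KAT7 (0.66) and AFAP1 (0.65), and SST followed CNN2 (0.64), LOC427545 and PRKAG2 (0.61 each). NTS had the weakest partners, CEP95 (0.60), ABCC13 (0.53) and RBM25 (0.50). The probe set of RBM25, a splicing factor, differed strongly between the lines (1.13 ± 0.08, SE, limma adjusted p = 1.21e-17). Each partner was read only by its best correlated probe set, and other probe sets of these genes were not compared here. ABCC13 and RBM25 followed NTS at 0.34 and 0.31 in LSL and at 0.72 and 0.70 in LB.

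The pathway of the peptides was followed through 7 lists of genes, in which a gene was counted when any of its probe sets passed. Over all genes 32.4% were called between the lines by this count (15.3% higher and 18.6% lower in LSL), and each list below lay under that share. Of 29 other neuropeptide precursors measured 2 were higher in LSL, 1 was lower and 26 did not pass. GHRL, the precursor of ghrelin, was higher by 0.48 ± 0.09 (SE, limma adjusted p = 4.95e-05), CALCA (calcitonin and CGRP) by 0.12 in 2 of 3 probe sets, and HCRT, the precursor of the orexins, was lower by 0.10.

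Of 13 genes of peptide processing and amidation 3 were lower and 10 did not pass. PAM, the enzyme that amidates peptides such as NPY, CCK and VIP at their end, was lower by 0.49 ± 0.05 (SE, limma adjusted p = 3.12e-12) in 1 of 3 probe sets, while its others had differences of -0.07 and 0.08. PCSK5, a proprotein convertase, fell by 0.24 in 1 of 9 probe sets, and SCG5, a chaperone of the convertase PCSK2, fell by 0.15 in 1 of 4. Their other probe sets lay between -0.10 and 0.05 for PCSK5 and between -0.05 and 0.04 for SCG5. The main convertases of neurons, PCSK1 and PCSK2, had differences between -0.04 and 0.01 and were not called. Of 12 granins and dense core vesicle genes 2 were higher, 1 was lower and 9 did not pass. SCG2, a granin like CHGB, differed in the other direction, with 0.28 and 0.24 in 2 of 4 probe sets and 0.09 and 0.10 in the others. SYT4, a synaptotagmin, was higher by 0.19 in 1 of 2 probe sets, and SLC18A2, the vesicular monoamine transporter, fell by 0.26 in 1 of 2. The other probe set differed by 0.15 for SYT4 and by 0.01 for SLC18A2.

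Among 23 receptors of the 9 peptides 2 were higher in LSL, 3 lower, and 18 without a call. OPRK1, the kappa opioid receptor, was higher by 0.44 ± 0.09 (SE, limma adjusted p = 6.67e-05), whereas OPRM1 and OPRD1, at which enkephalins mainly act, had differences of -0.05 and -0.11 and were not called (adjusted p = 0.655 and 0.0757). VIPR2, a receptor shared by VIP and PACAP, was higher by 0.57 ± 0.12 (SE, adjusted p = 0.000178). The somatostatin receptors SSTR1 and SSTR3 fell by 0.33 and 0.22 (SSTR3 in 1 of 3 probe sets). SSTR4 was also lower (-0.10 in 1 of 2 probe sets). The probe sets not called differed by -0.07 and -0.05 for SSTR3 and by -0.04 for SSTR4. In the same hens no SST probe set differed.

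Of 13 peptidases that break down neuropeptides 1 was higher (IDE, 0.12 in 1 of 3 probe sets) and 2 were lower. DPP4 fell by 0.37 in 1 of 3 and ECE1 by 0.12 in 1 of 2. The probe sets not called differed by -0.06 and -0.02 for IDE, by -0.02 and 0.04 for DPP4 and by -0.02 for ECE1. Of 19 genes of the cAMP and CREB pathway 1 was higher and 4 were lower. CREB1 was higher by 0.91 ± 0.09 (SE, limma adjusted p = 1.20e-12) in 1 of 4 probe sets, while the other 3 had differences between -0.04 and 0.02. ADCY8 and ADCY1, adenylate cyclases that respond to calcium, fell by 0.31 and 0.20, each in 1 probe set (of 4 and of 7), and CRTC1, a coactivator of CREB, by 0.18 in 1 of 5. The probe sets not called lay between -0.14 and 0.09 for ADCY8, between -0.22 and 0.01 for ADCY1 and between -0.20 and 0.00 for CRTC1. Of 15 genes regulated by neuronal activity 2 were higher and 13 did not pass. INHBA was higher in both probe sets (0.37 and 0.30) and HOMER1 by 0.11 in 1 of 3, while FOS had a difference of 0.00. The other HOMER1 probe sets had larger differences of 0.15 and 0.20 but were not called. For the group size and the interaction no gene of these lists passed.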

How the data were processed

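The authors scanned the arrays and made the deposited log2 values with RMA (no version given in the submitters' processing notes) and centring to the median. Each probe set had a median of 0 within 1e-06 over hens 1 to 30 and over hens 31 to 60, so no filter on low expression was possible and all 38535 probe sets were tested. Line, group size and side were taken from the sample labels, and symbols from the array's probe table.

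Differences were fitted with limma 3.58.1 in R 4.3.3 over 60 hens with the array set as a block, with Benjamini-Hochberg adjustment across the whole array (threshold 0.05). Correlations and spreads were computed in Python 3.11.15 with numpy 2.4.6, with 100000 permutations of hens, two-sided. Hens were permuted within array set and group size for correlations, and within array set alone for spreads. The scripts were tested on simulated data. The compartment of each hen was not used, so p-values treat hens as independent, and the number of arrays limits the precision.

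Named are all member probe sets, in each pathway list up to 4 genes with the largest called line differences, and per member the 3 genes most correlated with it. SSTR4, OPRM1, OPRD1, PCSK1, PCSK2, FOS, DOC2B, the called GABA markers and the markers named with their correlations were chosen after their values were seen. Members and lists were chosen with earlier results of these data known. Alternatives were no block, single sets, single side, leaving out LB hens 7, 8 and 16, other normalizations, other models and rank correlation. Sequences were not analysed here.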

Additional observations from a re-analysis of the deposited data

Results flagged for a closer look

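The relation of NTS to 3 other precursors differed between the lines by the permutation test of the difference itself, adjusted over 36 pairs. On Fisher's z the difference LSL minus LB was -1.17 for CCK with NTS, -0.95 for NTS with ADCYAP1 and -0.97 for TAC1 with NTS. The adjusted permutation p-values were 0.0157, 0.0157 and 0.0478, with 28 LSL and 32 LB hens. Within LB, the relation of CCK with NTS remained at r of 0.64 without the 2 hens farthest in CCK. Of 11 probe sets of oligodendrocyte markers, 0 in LSL and 4 in LB had r of -0.5 or below with NTS. Over all probe sets this share was 0.472% in LSL and 1.78% in LB. The mean of these markers in LB had r of -0.56 with NTS, -0.58 with TAC1, -0.46 with CCK and -0.22 with ADCYAP1. In LSL it had 0.05, 0.09, -0.32 and -0.37. Other lists changed sign with NTS too. The mean of the microglia list had r of 0.36 in LSL and -0.41 in LB. That of the endothelium and pericyte list had 0.26 and -0.30. That of the hypothalamic list had -0.35 and 0.45, and -0.41 and 0.08 without AVP. The astrocyte list kept its sign (0.12 and 0.10). The part of all these markers was not tested. Samples far from their group were not searched for, since every group held more than 10 hens.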

How the results depend on the processing

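Of 13 probe sets, 2 were called between the lines. None was called within hens 1 to 30 (0), within hens 31 to 60 (0) or after quantile normalization (0), and 1 was called on the right side alone and 1 with array medians subtracted. The shares of all probe sets called under these alternatives are not given here. A loss of calls among the 13 could therefore not be set against that of the array, and single sets held fewer hens. The PENK difference lay between 0.51 and 0.68 over 11 alternatives, with adjusted p-values of 0.00498 to 0.238, and that of CHGB between -0.18 and -0.13 with 0.0386 to 0.383. Group size, interaction and spread gave 0 calls under every alternative run. Differences that changed sign were all of probe sets that were not called. Between the lines these were NPY (-0.00609 without block and in the methods' t-test, -0.00834 with array weights, -0.0124 with quantile normalization, -0.0604 in hens 1 to 30 and -0.000693 with group size and side as covariates), SST in hens 31 to 60 (0.0241, -0.00552 and 0.0392) and on the right side (-0.0122), CCK in hens 31 to 60 (0.190 and 0.492), its second probe set without LB hens 7, 8 and 16 (0.0535), with quantile normalization (0.0466) and with array weights (0.0880), and VIP in hens 1 to 30 (-0.416). For the group size they were SST in hens 1 to 30 (0.0182 and 0.0715), ADCYAP1 (-0.0164) and CHGB (-0.00228) in hens 31 to 60, and NPY within LB without hens 7, 8 and 16 (-0.0780, added after seeing the data), and for the interaction SST on the right side (-0.0102). The cause was not tested.

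In LSL 4 pairs passed, but 0 within hens 1 to 30 and 0 within hens 31 to 60, where fewer hens were used. In LB 7 pairs passed, against 4 with Spearman's rho, 4 with the set not removed, 3 with the set alone removed, 0 in hens 1 to 30, 2 in hens 31 to 60, 2 on the right side, 3 with quantile normalization and, added after seeing the data, 12 with the actin 5' minus 3' difference and 3 with the meninges list regressed out. None of the correlations of the called pairs changed sign. Of the 3 differences between lines, 1 passed with Spearman's rho. No probe sets with several symbols named a member (0), so that alternative was not run. No paired analysis was possible because no hen number was used in more than 1 group.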
